A study of Homo sapiens with 6 samples.

Results

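The zinc finger genes of human chromosome 19 were compared between RKO cells with a knockdown of a circular RNA and their control cells. A gene was a member when a probe set of the annotated array table carried a single symbol of the form ZNF followed by a digit and aligned to chromosome 19. This gave 184 genes on 361 probe sets, among 15894 genes tested, and each gene was read on its brightest member probe set. In RefSeq, 246 protein-coding genes of chromosome 19 carry such a symbol, of which 181 were members, and the other 3 members were the transcribed pseudogenes ZNF137P, ZNF812P and ZNF833P.

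RKO is a human colon carcinoma cell line. The cells carried either shCIRC, a hairpin aimed at hsa_circ_0064559, or shEV, which the labels name an empty vector while also giving a nonsense hairpin sequence, and both groups were stably transfected and grown in the same medium. The methods mention no single clones and give the transfection efficiency only as a lower limit, so the share of cells that carried a hairpin is not known here. Total RNA of 3 shEV samples and 3 shCIRC samples was hybridised to 6 PrimeView arrays. Whether the samples of a group were grown separately is not stated, and the p-values therefore reflect only the spread among these samples, which could be technical. The 2 hairpin sequences from the labels, on which every difference between the groups rests, are shown here, 5′ to 3′.
shCIRC: tttattatagcctgccacagc
shEV: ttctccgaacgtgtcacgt
A single hairpin was set against a single control, so an effect of the circular RNA and an effect of that hairpin cannot be told apart. The circular RNA itself is not analysed here, and the array values therefore give no check of the knockdown.

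Chromosome 19 holds the densest collection of C2H2 zinc finger genes in the human genome, in clusters that grew by tandem duplication. Most of their proteins join a row of DNA-binding fingers to a KRAB domain, which binds TRIM28, and TRIM28 brings the methyltransferase SETDB1 and heterochromatin proteins to the bound DNA. Many of these proteins are known to silence transposable elements, and a smaller number regulate single host genes. Neighbouring genes of a cluster are close in sequence, so array probes can take up RNA of a related gene.

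Signals were log2 values normalized by the authors, and the within-group correlation of arrays over all genes was 0.998 to 0.999 against 0.990 between groups. Of all genes tested, 47.5% differed between shCIRC and shEV at an adjusted p under 0.05 in limma. As a measure of RNA quality, the 3′ minus 5′ difference of the control probe sets averaged -0.16 ± 0.02 (SD) for GAPDH over 3 shEV arrays against -0.30 ± 0.02 over 3 shCIRC arrays, and 0.13 ± 0.02 against -0.01 ± 0.03 for ACTB, and their part in the changes below was not tested. Of the markers checked, 4 of 5 epithelial genes were measured, with KRT18 and EPCAM above the median signal of all genes. EPCAM and KRT18 were lower in shCIRC, by log2 changes of -0.46 and -0.30, KRT8 was higher, by 0.53, and KRT19 was not called. The summed log2 signal of these 4 was 33.4 to 33.6 in shEV and 33.1 to 33.4 in shCIRC, lower in every shCIRC array, and its part in the changes below was not tested. Of 3 colon genes only CDX2 was measured, at 8.10 to 8.25 over the 6 arrays. Of the markers of other cell types, 2 of 5 fibroblast, 3 of 5 leukocyte and 3 of 3 endothelial genes were measured, and all of these except CD68 lay below the median signal. The summed log2 signal of the 3 leukocyte markers was 24.4 to 24.7 in shEV and 22.9 to 23.5 in shCIRC through CD68, and its part in the changes below was not tested.

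Zinc finger genes of chromosome 19 rose more often than they fell in shCIRC cells. Of the 184 members, 75 (40.8%) were higher and 21 (11.4%) were lower at an adjusted p under 0.05, while 88 were not called. The background over all genes tested was 22.8% higher and 24.7% lower. The median log2 fold change of the members was 0.11, with a range of -0.63 to 0.74, beside -0.005 over all genes. With each array centred on its median, 93 members were higher and 11 were lower, where 31.8% of all genes were higher and 18.9% lower. Bulk RNA was measured, in which fewer cells of a kind and less RNA per cell cannot be told apart. By more than 1.3-fold, 26 members (14.1%) rose and 4 (2.17%) fell, against a background of 7.44% and 9.43% of all genes.

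The shift was present on every array. After each gene was centred on its mean over the 6 arrays, the median of the members was -0.07 to -0.04 on the shEV arrays and 0.05 to 0.06 on the shCIRC arrays, and these ranges did not overlap. The shEV and shCIRC values were fully apart, with shCIRC above, in 84 members, and with shCIRC below in 25, where the background was 27.0% and 29.0% of all genes. Of the 88 members not called, 13 had groups that did not overlap. Such genes were also present elsewhere, since 8905 of all 15894 genes had groups apart while 7549 were called. The 13 are therefore not read as a trait of the members.

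Genes of the same kind elsewhere and other genes of the same chromosome gave other shares. Of 230 ZNF genes on other chromosomes, 73 (31.7%) were higher and 38 (16.5%) were lower, with a median of 0.05. Of 993 other genes on chromosome 19, 157 (15.8%) were higher and 263 (26.5%) were lower, with a median of -0.03. The 12 genes of other C2H2 families on the chromosome (ZFP, ZSCAN, ZKSCAN, ZBTB and single genes) had 2 higher and 2 lower. These shares stand side by side as descriptions, and no test of their difference was made, because the genes had been chosen with results of these data known.

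**Figure D1:**
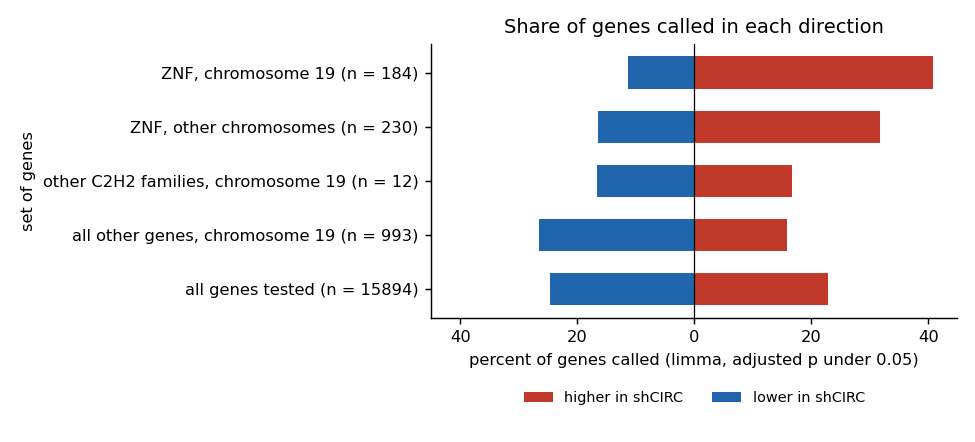
Percent of genes called higher (right, red) and lower (left, blue) in shCIRC cells in 5 sets of genes, from limma at an adjusted p under 0.05, with the number of genes in each set. The bar of the chromosome 19 ZNF genes reaches 40.8% on the higher side and 11.4% on the lower side, and that of the other genes of the chromosome 15.8% and 26.5%.

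The members had lower signals than the genes of the array as a whole, with a median of 7.32 against 8.11. Of the 54 members above that median of all genes, 30 were higher and 5 were lower, where 34.2% and 34.9% of all genes so bright were called. Of the 130 members at or below it, 45 were higher and 16 were lower, beside 11.3% and 14.6% of all such genes. The excess of rises over falls was thus present among bright and dim members alike. It was also present on the short arm, with 20 higher and 8 lower of 57, on the long arm, with 55 and 13 of 127, on the plus strand, with 43 and 13 of 104, and on the minus strand, with 32 and 8 of 80.

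Along the chromosome the members fell into 9 blocks of at least 5 genes, cut where the starts of neighbouring members lay over 1 Mb apart, plus 14 scattered members. Positions follow the deposited annotation, with a build not given in the sources used here. Counts of higher and lower members were 2 and 0 of 5 in 19p13.3, 6 and 2 of 12 in the distal block of 19p13.2, 8 and 3 of 21 in its proximal block, and 3 and 3 of 15 in 19p13.11-p12. On the long arm they were 4 and 0 of 5 in 19q13.11, 8 and 0 of 19 in 19q13.12, 16 and 2 of 21 in 19q13.31-q13.32, 12 and 3 of 31 in 19q13.41-q13.42, and 13 and 7 of 41 in 19q13.42-q13.43. In each block the higher members were as many as the lower ones or more. The 19p13.11-p12 block, with equal counts, showed no excess of called rises. Its shares of higher and lower members both lay below the 22.8% and 24.7% of all genes. The same held for the shares of the 14 scattered members, of which 3 were higher and 1 was lower. The block medians ran from 0.05 in 19q13.42-q13.43 to 0.25 in 19q13.31-q13.32.

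**Figure D2:**
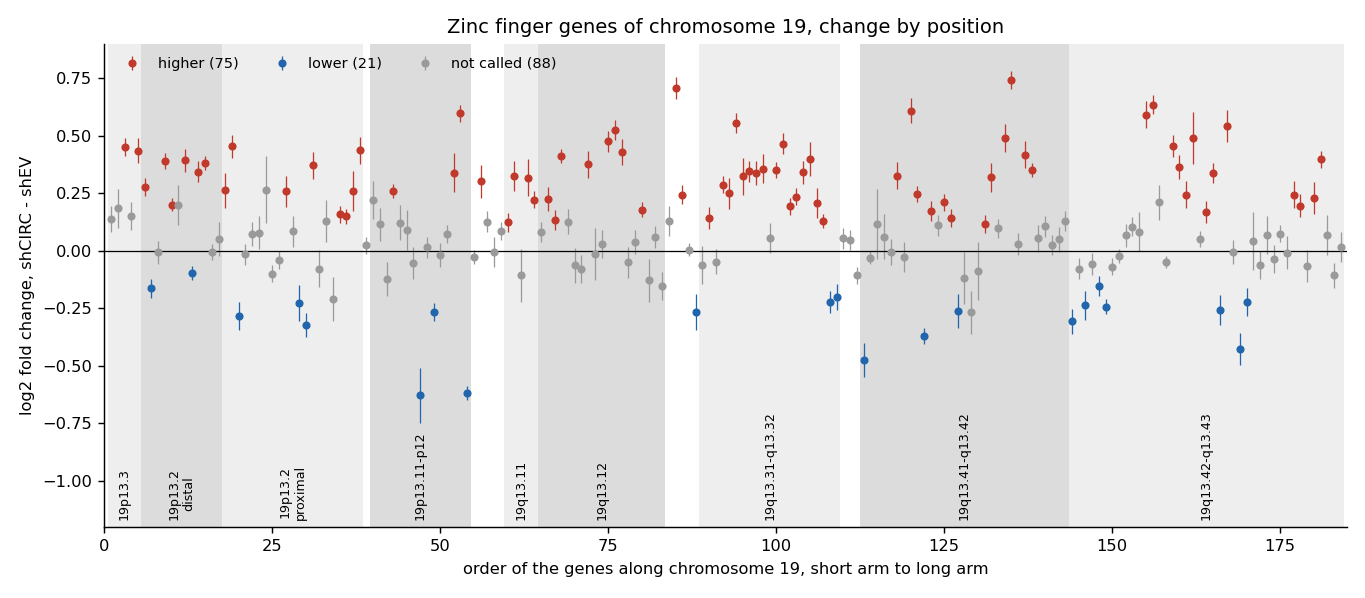
Log2 fold change of shCIRC against shEV (vertical axis, with standard error) for the 184 members in their order along chromosome 19 (horizontal axis). Red points were called higher, blue points lower and grey points neither, and the shaded bands mark the 9 blocks. In 19q13.31-q13.32, 16 of 21 points are red.

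The other genes between the members did not show these shares. The 115 other genes inside the 9 blocks had 18 higher and 17 lower, with a median of -0.002, and the 878 outside had 139 higher and 246 lower, with a median of -0.03. The 115 were dimmer than the members in the blocks, with a median signal of 6.44 against 7.35, and dim genes were called less often. Log2 fold changes of neighbouring members had the same sign in 60.5% of 167 pairs, with 39 pairs both higher, 4 both lower and 12 called in opposite directions. Among 987 pairs of other neighbours on the chromosome 49.0% had the same sign. Changes were positive in 124 of the 184 members and in 405 of the 993 other genes. An excess of rises by itself makes like signs more frequent, whatever the position, and these shares were not corrected for it. The correlation of the log2 fold change between neighbours was 0.20 for members and 0.03 for the other genes. Neighbouring members also share sequence. The 10 probe sets that name several ZNF genes were set aside. Of the main probe sets of the 184 members, 16 ending in s_at and 44 ending in x_at can also take up RNA of related genes, and these were kept.

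The block with the most higher members and the highest median was the cluster at 19q13.31-q13.32, from 44.0 to 45.6 Mb, which was singled out after its values had been seen. Its 16 higher members were ZNF576, ZNF283, ZNF404, ZNF45, ZNF155, ZNF230, ZNF222, ZNF223, ZNF224, ZNF225, ZNF234, ZNF226, ZNF227, ZNF233, ZNF235 and ZNF112. From ZNF224 to ZNF112, 8 members in a row rose, which was the longest such run on the chromosome. ZNF180 and ZNF296, at the far end of the cluster, fell, and ZNF575, ZNF428 and ZNF284 were not called. Of 25 other genes in the same interval, 4 were higher and 7 were lower, with a median of -0.01.

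ZNF45 had the largest change in the cluster and read 8.29, 8.19 and 8.33 in the shEV arrays and 8.80, 8.83 and 8.85 in the shCIRC arrays. Every shCIRC value lay above every shEV value, and shCIRC exceeded shEV by 0.56 on the log2 scale (standard error 0.04, adjusted p = 7.4e-05). Its other probe set changed by 0.56. ZNF224, a KRAB repressor that is also known as a partner of the Wilms tumour protein WT1, read 8.63, 8.53 and 8.60 in the shEV arrays and 8.92, 8.94 and 8.95 in the shCIRC arrays. The groups were apart, with a log2 difference of 0.35 (standard error 0.04, adjusted p = 2.2e-04). ZNF225, its neighbour, read 6.31, 6.18 and 6.31 in the shEV arrays and 6.71, 6.72 and 6.77 in the shCIRC arrays, and rose by 0.47 (standard error 0.05, adjusted p = 2.0e-04).

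Further along the run, from ZNF234 to ZNF112, the rises differed in size. ZNF234 read 8.33, 8.31 and 8.41 in the shEV arrays and 8.57, 8.53 and 8.53 in the shCIRC arrays, a difference of 0.19 on the log2 scale (standard error 0.04, adjusted p = 0.0045). That call rested on 1 of 3 probe sets, since both others changed by 0.04 and were not called. ZNF227 read 9.34, 9.20 and 9.27 in the shEV arrays and 9.65, 9.53 and 9.65 in the shCIRC arrays, a log2 change of 0.34 (standard error 0.05, adjusted p = 0.0016). The rises were unequal between these neighbours, and ZNF112, the last of the run, changed by 0.13 (standard error 0.03, adjusted p = 0.011). ZNF226 depended on the probe set: its brightest rose by 0.24 (standard error 0.04, adjusted p = 0.0019), a pair of others of nearly the same signal rose by 1.10 and 1.11, and the dimmest changed by -0.04.

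At the far end ZNF180 read 7.94, 8.0 and 7.99 in the shEV arrays and 7.75, 7.84 and 7.67 in the shCIRC arrays, and its groups were apart in the other direction, with a log2 difference of -0.22 (standard error 0.05, adjusted p = 0.0081). Its other probe set changed by -0.08 and was not called. ZNF296 read 7.80, 7.78 and 7.86 in the shEV arrays and 7.58, 7.53 and 7.73 in the shCIRC arrays and fell by 0.20 (standard error 0.06, adjusted p = 0.023). ZNF284, between ZNF223 and ZNF224, read 8.76, 8.72 and 8.90 in the shEV arrays and 8.78, 8.82 and 8.95 in the shCIRC arrays, where the groups overlapped and the adjusted p was 0.53. ZNF230 gave the only disagreement in sign of more than 0.1 among the higher members of the cluster, with a main probe set at 0.35 and others at 0.24 and -0.24, the last of which was not called.

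**Figure D3:**
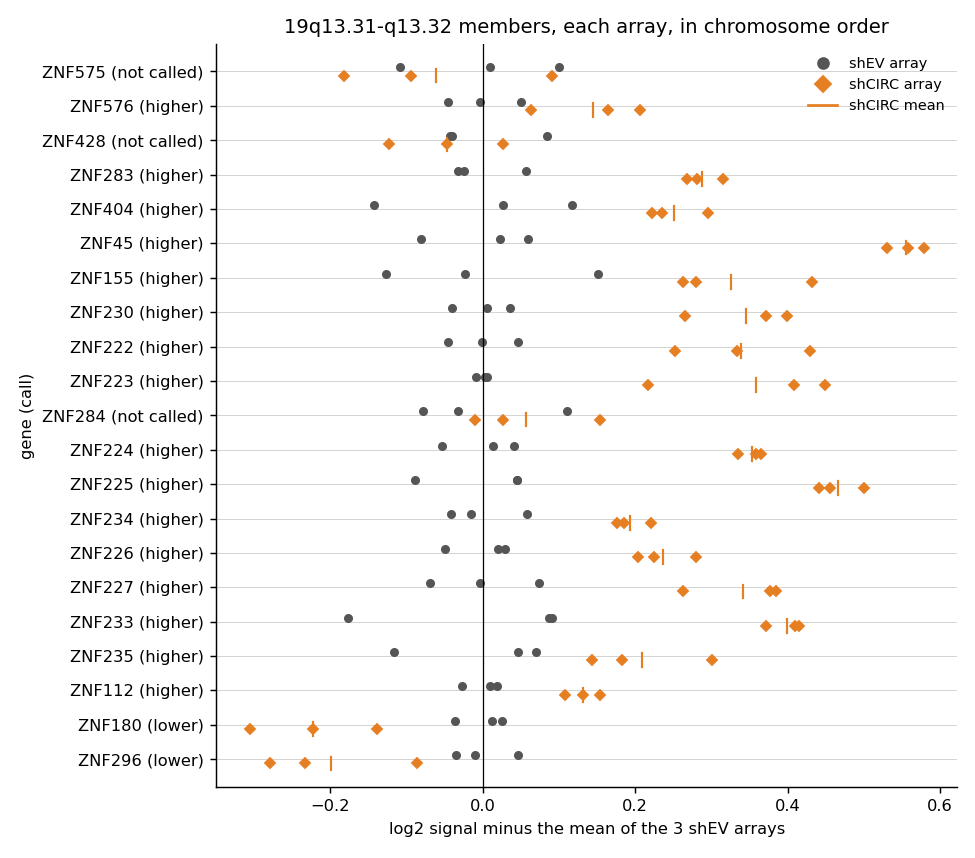
Log2 signal of each array minus the mean of the 3 shEV arrays (horizontal axis) for the 21 members at 19q13.31-q13.32 in chromosome order (vertical axis, with the call). Circles are shEV arrays, diamonds are shCIRC arrays and the short bar is the shCIRC mean. In the 16 higher members all diamonds lie to the right of all circles, and in ZNF180 and ZNF296 to the left.

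Since 16 of these members rose, their promoters were read. RefSeq promoter windows of 300 bases (250 before the start and 50 after, GRCh38.p14) matched 162 members with 203 windows. The 100 bases before the start, 5′ to 3′, follow with their GRCh38.p14 positions for the largest rise of the cluster (ZNF45), for members of the run and for ZNF180, which fell, with the letters TTCTGGGAA on the strand shown in capitals.
ZNF45, chr19:43935283-43935382, minus strand: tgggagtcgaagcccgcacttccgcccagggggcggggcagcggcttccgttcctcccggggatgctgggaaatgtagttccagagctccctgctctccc
ZNF224, chr19:44094261-44094360, plus strand: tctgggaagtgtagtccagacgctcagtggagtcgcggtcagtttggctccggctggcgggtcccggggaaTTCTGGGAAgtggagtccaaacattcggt
ZNF225, chr19:44113299-44113398, plus strand: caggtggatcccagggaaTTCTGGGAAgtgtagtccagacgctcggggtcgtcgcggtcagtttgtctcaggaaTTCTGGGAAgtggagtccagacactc
ZNF234, chr19:44141454-44141553, plus strand: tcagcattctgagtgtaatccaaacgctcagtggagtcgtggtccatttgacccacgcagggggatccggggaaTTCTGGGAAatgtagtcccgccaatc
ZNF227, chr19:44212432-44212531, plus strand: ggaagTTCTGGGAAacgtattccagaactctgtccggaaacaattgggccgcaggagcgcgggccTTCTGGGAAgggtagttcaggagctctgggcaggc
ZNF235, chr19:44305026-44305125, minus strand: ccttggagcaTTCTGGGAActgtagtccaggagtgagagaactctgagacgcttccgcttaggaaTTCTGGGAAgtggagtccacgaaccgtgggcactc
ZNF180, chr19:44500523-44500622, minus strand: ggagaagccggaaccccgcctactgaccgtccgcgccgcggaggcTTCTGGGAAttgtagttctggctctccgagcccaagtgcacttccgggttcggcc
The letters TTCTGGGAA, on either strand, were in 13 of 21 windows of the cluster (61.9%), in 9 of 182 windows of the other members (4.95%) and in 1.03% of all 35116 windows. They were picked after the windows had been read. Within the cluster they were in 11 of 16 windows of higher members, in 1 of 2 of lower members and in 1 of 3 of members not called. These are counts of windows, and some genes had more than 1. Only 18 of the 21 members of the cluster had a window, and 12 of these had the letters. Of the 16 higher members 13 had a window, and 10 of these had the letters. ZNF45 had no exact match, but its stretch holds ctgggaaatgtagt, which the stretch of ZNF234 holds as well. A near match of this kind was not counted. ZNF180, which fell, had a match. TTCTGGGAA is a spelling of TTCNNNGAA, a general form that STAT proteins bind. TTCNNNGAA was in 71.4% of the windows of the cluster, which include those with TTCTGGGAA, and in 7.66% of all windows. In ZNF180 the letters are followed by ttgtagt, the reverse strand of the letters ACTACAA of ZNF143. ACTACAA was in 9.52% of the windows of the cluster and in 2.77% of all windows. The letters alone do not name a factor. No binding was measured in these cells, and the part of shared descent in these matches was not tested.

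The cluster at 19p13.11-p12 held both large rises and large falls. The windows of ZNF429, which rose, and of ZNF100 and ZNF85, which fell, are shown for the 100 bases before the start, with CCAATCAG in capitals.
ZNF429, chr19:21505502-21505601, plus strand: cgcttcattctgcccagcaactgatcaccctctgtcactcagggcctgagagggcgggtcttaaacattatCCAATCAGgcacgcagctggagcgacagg
ZNF100, chr19:21767580-21767679, minus strand: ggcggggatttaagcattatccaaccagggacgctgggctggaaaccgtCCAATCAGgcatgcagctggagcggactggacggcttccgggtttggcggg
ZNF85, chr19:20923151-20923250, plus strand: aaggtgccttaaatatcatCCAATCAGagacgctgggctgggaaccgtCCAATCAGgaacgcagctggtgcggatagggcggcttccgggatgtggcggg
The letters CCAATCAG, which were also picked after the windows had been read and which contain CCAAT, were in 12 of 12 windows of this block, in 17 of 20 of the proximal 19p13.2 block and in 3.97% of all windows. They were thus shared by members that rose, fell or were not called. ZNF429 read 9.13, 9.05 and 9.13 in the shEV arrays and 9.69, 9.68 and 9.74 in the shCIRC arrays, which put the groups apart with a difference of 0.60 on the log2 scale (standard error 0.04, adjusted p = 2.8e-05), and its other probe set rose by 0.66.

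ZNF100 read 7.35, 7.31 and 7.33 in the shEV arrays and 6.73, 6.69 and 6.72 in the shCIRC arrays on its single probe set. The arrays of a group lay within 0.05 of each other, and the gene fell by 0.62 (standard error 0.03, adjusted p = 1.2e-05), or 1.54-fold. ZNF85 read 5.74, 5.66 and 5.91 in the shEV arrays and 5.38, 4.94 and 5.10 in the shCIRC arrays, with the groups apart, a wide spread in shCIRC and a log2 fold change at -0.63 (standard error 0.12, adjusted p = 0.0042). A ZNF85 probe set that was not aligned to chromosome 19, and so was no member, changed by 0.28 (adjusted p = 0.058), so the direction of ZNF85 rested on a single probe set that can take up related RNA. ZNF431, known in the mouse as a repressor of the Hedgehog receptor gene Ptch1, read 8.37, 8.34 and 8.38 in the shEV arrays and 8.03, 8.14 and 8.13 in the shCIRC arrays and fell by 0.27 (standard error 0.04, adjusted p = 0.0016).

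Several runs of letters known to be bound in promoters were counted on either strand in the 203 member windows and in all windows. The ETS letters CCGGAAGT were in 16.3% of member windows and 4.14% of all windows, with 18 of the 33 windows with a match in 19q13.42-q13.43. The shares were 2.46% and 1.85% for the CRE letters TGACGTCA, 5.91% and 2.77% for ACTACAA of ZNF143, 5.42% and 2.89% for AAGATGGC of YY1, and 27 of 203 windows and 6.89% for TTTNNCGC of E2F. They were 46.8% and 34.6% for CCAAT and 67.0% and 45% for the GC box letters GGGCGG. In 252 windows of ZNF genes on other chromosomes the shares were 12.7% for ETS, 3.57% for CRE, 6.35% for ZNF143 and 3.17% for YY1. There they were 12.7% for E2F, 37.3% for CCAAT and 59.1% for the GC box. Several of these shares are thus not particular to the members. The ETS letters were in 22.4% of the windows of higher members, 14.3% of lower members and 12.3% of members not called. A match describes the sequence and marks no site in use.

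The largest rise was that of ZNF468 at 19q13.41, which read 7.83, 7.84 and 7.83 in the shEV arrays and 8.56, 8.64 and 8.53 in the shCIRC arrays. The shEV arrays were within 0.02 of each other and far below every shCIRC array, and shCIRC exceeded shEV by 0.74 on the log2 scale (standard error 0.04, adjusted p = 1.4e-05), or 1.67-fold. Its other chromosome 19 probe set rose by 0.68. ZNF28, its neighbour in the same block, read 7.46, 7.65 and 7.58 in the shEV arrays and 7.98, 8.10 and 8.09 in the shCIRC arrays and rose by 0.49 (standard error 0.06, adjusted p = 5.3e-04), with 4 other probe sets at 0.03 to 0.87. The 0.03 came from the only ZNF28 probe set not marked as able to take up RNA of related genes, on which ZNF28 was not called.

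ZNF780A, a scattered member at 19q13.2, read 6.43, 6.58 and 6.57 in the shEV arrays and 7.23, 7.21 and 7.27 in the shCIRC arrays. The groups were clearly apart at a log2 change of 0.71 (standard error 0.05, adjusted p = 3.9e-05), and ZNF780B beside it rose by 0.25 (standard error 0.04, adjusted p = 0.0024). The 4 other ZNF780A probe sets differed in size, with 2 called higher, up to 0.81, and 2 not called, at 0.10 and -0.04. ZNF614 read 5.68, 5.58 and 5.49 in the shEV arrays and 6.24, 6.14 and 6.20 in the shCIRC arrays and rose by 0.61 (standard error 0.05, adjusted p = 1.3e-04), while its 2 other probe sets changed by 0.02 and 0.10 and were not called.

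In the distal block of the long arm, 19q13.42-q13.43, ZNF264 and ZNF805 lie side by side and both rose. ZNF805 read 8.09, 8.01 and 7.98 in the shEV arrays and 8.71, 8.63 and 8.65 in the shCIRC arrays, a log2 difference of 0.64 (standard error 0.04, adjusted p = 3.3e-05), with other probe sets at 0.18 to 0.41. ZNF264 read 7.90, 7.84 and 7.83 in the shEV arrays and 8.54, 8.33 and 8.49 in the shCIRC arrays, a difference of 0.59 on the log2 scale (standard error 0.06, adjusted p = 1.9e-04). Neither gene had overlapping groups, but the other probe set of ZNF264 changed by 0.19 and was not called. ZNF776 in the same block read 9.36, 9.11 and 9.28 in the shEV arrays and 9.87, 9.78 and 9.73 in the shCIRC arrays and rose by 0.54 (standard error 0.07, adjusted p = 6.8e-04).

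At 19q13.12, where 8 members rose and 0 fell, ZNF585A read 8.35, 8.28 and 8.34 in the shEV arrays and 8.81, 8.80 and 8.93 in the shCIRC arrays, with a log2 change of 0.53 (standard error 0.05, adjusted p = 1.1e-04) and 0.30 on its other probe set. The other rises of the block were ZNF146, ZNF566, ZNF260, ZNF567, ZNF420, ZNF383 and ZNF571, at 0.13 to 0.48. At 19q13.11, ZNF181 had the largest change, 0.33 (standard error 0.07, adjusted p = 0.0061), beside rises of ZNF302, ZNF30 and ZNF792.

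In the other 3 blocks of the short arm the member with the largest change rose. ZNF556 at 19p13.3 read 6.61, 6.52 and 6.53 in the shEV arrays and 6.98, 6.97 and 7.06 in the shCIRC arrays, a log2 difference of 0.45 (standard error 0.04, adjusted p = 1.3e-04), and ZNF77 beside it rose by 0.44 (standard error 0.05, adjusted p = 6.4e-04). ZNF559 in the distal 19p13.2 block read 7.67, 7.68 and 7.78 in the shEV arrays and 8.03, 8.11 and 8.18 in the shCIRC arrays, a difference of 0.39 on the log2 scale (standard error 0.05, adjusted p = 6.8e-04), and all of its 3 probe sets were called higher. The 5 other rises there were ZNF557, ZNF558, ZNF317, ZNF121 and ZNF561, at 0.20 to 0.39. ZNF627 in the proximal block read 8.98, 8.82 and 8.97 in the shEV arrays and 9.38, 9.35 and 9.40 in the shCIRC arrays, a log2 change of 0.45 (standard error 0.05, adjusted p = 3.3e-04).

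Falls were fewer, and 4 of the 21 exceeded 1.3-fold. ZNF841 at 19q13.41 read 6.94, 7.05 and 7.15 in the shEV arrays and 6.51, 6.51 and 6.70 in the shCIRC arrays and fell by 0.47 (standard error 0.07, adjusted p = 0.0017), and its other probe set fell by 0.46. ZNF836, a further member of that block, read 8.06, 8.08 and 8.09 in the shEV arrays and 7.69, 7.76 and 7.68 in the shCIRC arrays and fell by 0.37 (standard error 0.03, adjusted p = 1.4e-04). A second ZNF836 probe set fell by 0.36, and the third changed by 0.16 and was not called. ZNF586 at 19q13.43 read 6.10, 6.26 and 6.36 in the shEV arrays and 5.88, 5.75 and 5.80 in the shCIRC arrays, a log2 difference of -0.43 (standard error 0.07, adjusted p = 0.0023), against -0.01 on its other probe set.

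ZNF844 in the proximal 19p13.2 block fell by 0.32 (standard error 0.05, adjusted p = 0.002), with its 2 other probe sets at -0.24 and -0.14. The pseudogene ZNF833P of the same block fell by 0.28 (standard error 0.06, adjusted p = 0.008). ZNF628, at the start of 19q13.42-q13.43, fell by 0.31 (standard error 0.05, adjusted p = 0.0033), and nearby ZNF524, ZNF580 and ZNF581 fell by 0.24, 0.15 and 0.24. No member between these was called higher. ZNF526 at 19q13.2 had the smallest of the 10 largest falls, -0.26 (standard error 0.08, adjusted p = 0.028), a call that was lost without shEV replicate 1 or 2 or shCIRC replicate 1 or 3.

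**Figure D4:**
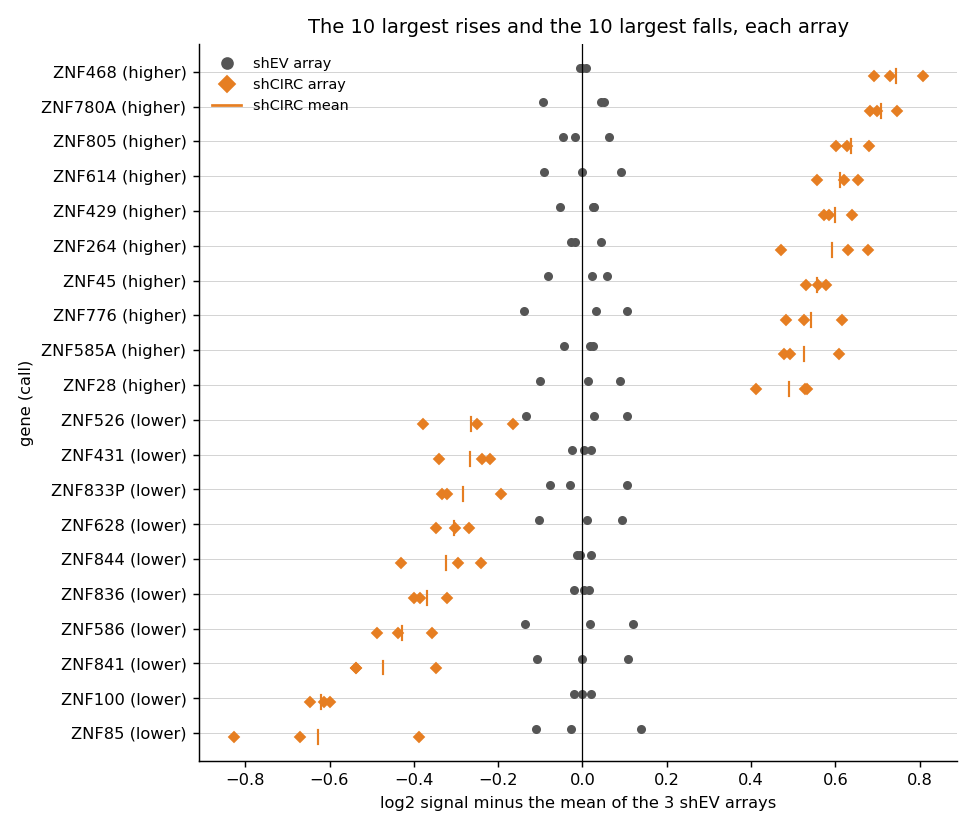
Log2 signal of each array minus the mean of the 3 shEV arrays (horizontal axis) for the 10 largest rises and the 10 largest falls among the members (vertical axis, with the call). Circles are shEV arrays, diamonds are shCIRC arrays and the short bar is the shCIRC mean, which runs from 0.74 for ZNF468 to -0.63 for ZNF85.

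Of 12 members with a role fixed for description, 10 were measured, and ZNF304 and ZNF675 are not analysed here. Among the 4 that rose, ZNF420, also known as Apak, which holds back p53 at genes of apoptosis, read 6.07, 5.95 and 6.01 in the shEV arrays and 6.51, 6.42 and 6.53 in the shCIRC arrays. The shEV arrays lay below all shCIRC arrays, and shCIRC exceeded shEV by 0.48 on the log2 scale (standard error 0.05, adjusted p = 1.7e-04). ZNF350, or ZBRK1, which works with BRCA1 to repress GADD45A, read 7.25, 7.19 and 7.32 in the shEV arrays and 7.48, 7.67 and 7.59 in the shCIRC arrays and rose by 0.33 (standard error 0.06, adjusted p = 0.0033). ZNF146, a finger protein without a KRAB domain that is known to be amplified in some tumours, rose by 0.23 (standard error 0.05, adjusted p = 0.0097), with 0.23 and 0.31 on its 2 other probe sets. ZNF224, of the 19q13.31-q13.32 cluster, was the other.

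The other 6 were not called. ZNF91, which silences SVA retrotransposons, read 9.98, 9.98 and 9.99 in the shEV arrays and 9.95, 9.98 and 9.93 in the shCIRC arrays, with overlapping groups and a difference of -0.03 on the log2 scale (standard error 0.03, adjusted p = 0.52). Its other probe set, at -0.16, was called lower. ZNF93, which silences LINE-1 elements, read 5.94, 5.72 and 5.92 in the shEV arrays and 5.96, 5.90 and 6.09 in the shCIRC arrays, a log2 change of 0.12 (standard error 0.08, adjusted p = 0.24). ZNF274, which brings SETDB1 to the ends of zinc finger genes themselves, read 7.01, 6.99 and 6.77 in the shEV arrays and 6.97, 6.93 and 6.85 in the shCIRC arrays, and its groups overlapped almost fully, with a log2 difference of -0.01 (standard error 0.07, adjusted p = 0.94).

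ZNF331, a gene often methylated in colorectal tumours, read 6.53, 6.67 and 6.62 in the shEV arrays and 6.69, 6.77 and 6.75 in the shCIRC arrays, a change of 0.13 (standard error 0.04, adjusted p = 0.051), with groups that did not overlap. ZNF473, which takes part in histone mRNA processing, had -0.11 (standard error 0.04, adjusted p = 0.056), also with groups apart, and its other probe set changed by 0.07. ZNF382, a candidate tumour suppressor, had -0.06 (standard error 0.08, adjusted p = 0.55) with overlapping groups. ZNF160, known to repress the receptor TLR4 in intestinal epithelium and named after its values were seen, rose by 0.35 (standard error 0.03, adjusted p = 1.0e-04) on its main probe set and changed by 0.03 on the other.

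The other probe sets were read as a check of each member. Of the 184 members, 105 had more than 1 probe set, and in 78 of these all went the same way. Of 54 higher members with other probe sets, 49 had all of them positive, 45 had at least 1 other called higher, 32 had every probe set called higher, and 0 had another called lower in the limma fit. Of 9 lower members with other probe sets, 8 had all of them negative, 3 had every probe set called lower, and 0 had another called higher. The remaining 21 higher and 12 lower members rested on 1 probe set.

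Over the 361 member probe sets 162 were higher and 32 were lower, beside a background of 25.6% and 24.6% of the probe sets of single genes. Without those whose names end in x_at or s_at, which can take up RNA of related genes, 108 of 238 were higher and 20 were lower. By the kind of main probe set, the higher and lower members were 21 and 5 of 51 with plain names, 34 and 9 of 73 ending in a_at, 3 and 1 of 16 ending in s_at, and 17 and 6 of 44 ending in x_at.

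**Figure D5:**
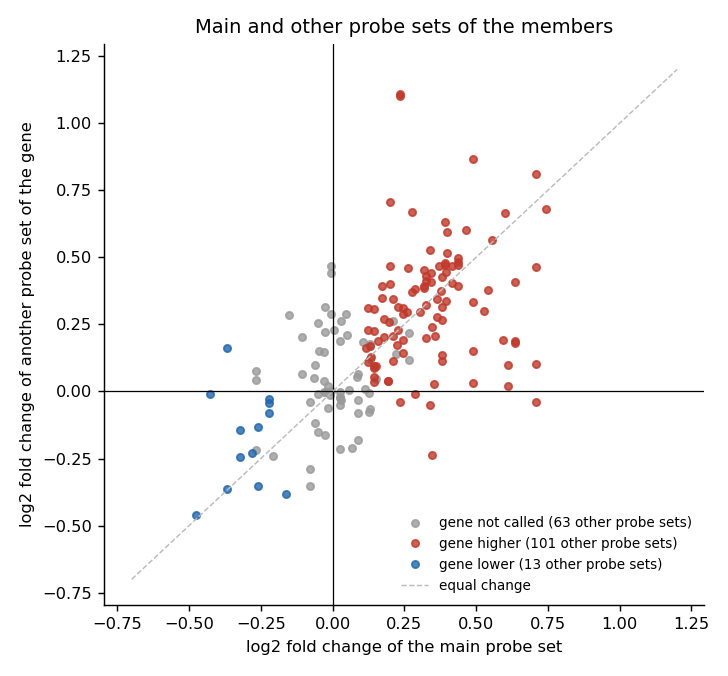
Log2 fold change of each other probe set of a member (vertical axis) against that of its main probe set (horizontal axis), coloured by the call of the gene. The 101 other probe sets of higher members lie mostly above 0, and the pair near 1.1 belongs to ZNF226.

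A list of 21 genes, made for description, held cofactors of KRAB proteins and other genes of silencing. The latter include SUV39H1, EHMT2, UHRF1, DNMT1, ATRX and DAXX, and all 21 are called cofactors here for short. All were measured, and 6 (28.6%) were higher, 11 (52.4%) were lower and 4 were not called. Their median log2 fold change was -0.14. Over all genes 22.8% were higher and 24.7% lower, but 20 of the cofactors lay above the median signal, where 34.2% of genes were higher and 34.9% lower. For a list of 21 genes, the share of higher cofactors was near that of these brighter genes, and the share of lower ones lay above it. Of 17 cofactors with more than 1 probe set, 9 had probe sets of both signs, and in ATRX, CBX5, PPHLN1 and TASOR another probe set was called in the opposite direction. TRIM28, which binds the KRAB domain and lies on chromosome 19, read 11.17, 11.19 and 11.20 in the shEV arrays and 10.33, 10.40 and 10.40 in the shCIRC arrays and fell by 0.81 (standard error 0.03, adjusted p = 6.2e-06). SUV39H1, an H3K9 methyltransferase, read 9.41, 9.55 and 9.35 in the shEV arrays and 8.48, 8.58 and 8.45 in the shCIRC arrays and fell by 0.93 (standard error 0.06, adjusted p = 3.2e-05). In both genes every shCIRC array lay below every shEV array. DAXX, which with ATRX places histone H3.3 at silenced repeats, read 10.68, 10.72 and 10.70 in the shEV arrays and 11.85, 11.84 and 11.81 in the shCIRC arrays and rose by 1.13 (standard error 0.03, adjusted p = 2.7e-06).

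EHMT2, a further H3K9 methyltransferase, fell by 0.53 (standard error 0.05, adjusted p = 1.2e-04). UHRF1, which guides DNA methylation to copied DNA, fell by 0.47 (standard error 0.03, adjusted p = 3.4e-05), and CHD4, the remodelling enzyme of the NuRD complex, fell by 0.44 (standard error 0.03, adjusted p = 4.1e-05). Of the other CHD4 probe sets, one was called lower at -0.30 and one was not called at 0.08. SETDB1, the methyltransferase that TRIM28 brings, was not called on its brighter probe set, at -0.04 (standard error 0.04, adjusted p = 0.52), and was called higher on the other, at 0.20. The zinc finger members and these cofactors were measured in the same 6 arrays, and a link between them was not tested.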

How the data were processed

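Gene expression was measured on 6 PrimeView arrays, 3 of shEV and 3 of shCIRC RKO cells, each mapped to its group by its label, from 6 µg of total RNA per array. The authors deposited log2 signals that had been quantile normalized in R, for 49395 probe sets and, with annotation, for the 39269 that passed their filter on low signals. Their processing notes name GCOS 1.4, with background correction and probe summary not given in the sources used here. Columns of p-values, FDR and fold changes from the authors' own comparison were left unused. The number of arrays limits the precision, and an exact permutation test of 3 against 3 arrays cannot go below a two-sided p of 0.1.

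Of the annotated probe sets 37458 name 1 gene, and the brightest per gene gave 15894 genes. For members only probe sets aligned to chromosome 19 were used. They were tested on the deposited log2 signals with limma 3.58.1 (lmFit, then eBayes) under R 4.3.3, and p-values were adjusted over all genes by Benjamini and Hochberg. The fit was tested on simulated data. The members, lists, blocks and naming rule were chosen with earlier results of these data known, so lists were described by counts and medians without a set test. Genes were named as the 10 largest rises and the 10 largest falls among members called with groups apart, the largest change of each block, 12 members with a fixed role, and the 6 largest changes among cofactors past the threshold. Other genes were named after their values were seen. Alternatives covered scaling, filters, probe set choice, test, threshold, a block for the replicate number, and the omission of each array. The planned count of fingers and KRAB boxes in the proteins was not run.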

Additional observations from a re-analysis of the deposited data

Results flagged for a closer look

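Of 10 probe sets on chromosome 19 that name several ZNF genes, and that were therefore used in no comparison, 6 had shCIRC arrays all above the shEV arrays and 0 had them all below. The difference of the group means on the log2 scale was 0.74 for the probe set of ZNF28 and ZNF468, 0.55 for that of ZNF20 and the readthrough gene ZNF625-ZNF20, and 0.51 for that of ZNF177 and ZNF559-ZNF177. It was 0.45 for the probe set of ZNF585B and ZNF585A, and 0.24 and 0.29 for a pair that names ZNF302, ZNF181 and ZNF807. They were listed because signal outside the main measurement lay above its level in the control arrays. Over all genes tested, 27.0% had groups apart in this direction. These values are no independent support for ZNF468, ZNF28, ZNF585A, ZNF302 or ZNF181, whose RNA they share.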

How the results depend on the processing

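The counts and medians below give the value under each alternative that moved a result, beside the value in the report, and the cause was not tested unless stated. Of the 184 members, 75 were higher and 21 lower. Tests of only the genes above the median signal, which leave fewer members to call, gave 34 and 5, and a fold over 1.3 gave 26 and 4. Centring each array on its median gave 11 lower, and an adjusted p under 0.01 gave 11 lower. Leaving out each array in turn gave 65 to 71 higher and 14 to 17 lower. Over all alternatives the number of higher members was 26 to 93. In 19q13.31-q13.32 the 16 higher members became 6 among genes above the median signal and 3 with a fold over 1.3, and 13 to 15 when an array was left out. The cofactors, 6 higher and 11 lower, became 1 and 5 with a fold over 1.3, and 6 and 9 to 11 when an array was left out.

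The median log2 fold change of the members, 0.11, was 0.18 after centring, 0.13 after a further quantile normalization, 0.13 after cyclic loess, 0.18 among genes above the median signal, and 0.10 to 0.11 without 1 array. Centring moved the median of all genes to 0.07 and their shares to 31.8% higher and 18.9% lower. After centring the block medians were 0.27 and 0.16 in the distal and proximal 19p13.2 blocks, 0.14 in 19p13.11-p12, 0.29 in 19q13.11, 0.15 in 19q13.12, 0.32 in 19q13.31-q13.32, 0.18 in 19q13.41-q13.42 and 0.12 in 19q13.42-q13.43. Among genes above the median signal they were 0.44 in 19p13.3, 0.24 and 0.35 in 19p13.2, 0.015 in 19p13.11-p12, 0.12 in 19q13.11, 0.23 in 19q13.12, 0.22 in 19q13.31-q13.32 and 0.14 in 19q13.42-q13.43. A further quantile normalization gave 0.12 in the proximal 19p13.2 block, 0.29 in 19q13.31-q13.32 and 0.13 in 19q13.41-q13.42. Cyclic loess gave 0.12 in the proximal 19p13.2 block, 0.27 in 19q13.11 and 0.066 in 19q13.42-q13.43. The mean of all probe sets gave 0.29 in the distal 19p13.2 block and 0.13 in 19q13.41-q13.42, and leaving out x_at and s_at probe sets gave 0.24 in the distal 19p13.2 block. Without 1 array the block medians ran from 0.13 to 0.26 in 19p13.3, 0.17 to 0.23 and 0.071 to 0.14 in 19p13.2, 0.016 to 0.082 in 19p13.11-p12 (lowest without shEV replicate 2), 0.20 to 0.24 in 19q13.11, 0.08 to 0.10 in 19q13.12, 0.21 to 0.31 in 19q13.31-q13.32, 0.09 to 0.12 in 19q13.41-q13.42 and 0.023 to 0.058 in 19q13.42-q13.43 (lowest without shEV replicate 2). Every block median stayed above 0 under these settings. With gaps of 2 Mb there were 6 blocks of at least 5 members in place of 9.

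Of 34 named genes, 25 kept their direction and their side of the threshold under every alternative run. ZNF85 turned to 0.28 without x_at and s_at probe sets, since the probe set used was then another, and ZNF264 and ZNF28 were not called there, at 0.19 and 0.03. ZNF526 lost its call under 6 alternatives, among them leaving out shEV replicate 1 or 2 or shCIRC replicate 1 or 3, where the adjusted p was 0.062 to 0.085. ZNF85 lost its call with the mean of all probe sets, at -0.17. Members that were not called changed sign near 0. ZNF91 became 0.045 and ZNF382 0.0074 after centring. ZNF274, at -0.01 in the report, became 0.062 after centring, 0.022 after quantile normalization and 0.024 after loess, and ran from -0.085 to 0.037 when an array was left out. ZNF331 passed the threshold under 7 alternatives, among them without shEV replicate 2 (0.16), ZNF473 with array weights (-0.11), and ZNF91 with the mean of all probe sets (-0.10) and without x_at and s_at probe sets (-0.16). The planned search for KRAB boxes in the proteins was not run, nor was its alternative. Samples with the same number deviated together only weakly (r of 0.07, 0.09 and 0.10, each array correlating best with its own number), so the numbers were not treated as pairs, and with the replicate block 74 members were higher, 71 of them the same as without it.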
